A study of Mus musculus with 18 samples.

Results

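The step from the DN3 to the DN4 fraction was examined within a thymic lymphoma of the mouse that is driven by NPM-ALK, an oncogenic fusion of nucleophosmin and the ALK tyrosine kinase found in anaplastic large cell lymphoma. The comparison used 6 of the 18 Affymetrix arrays in the series, the 3 titled as DN4 lymphoma cells and the 3 titled as DN3 lymphoma cells, chosen by their titles alone. Host mice of both groups carried an Lck-Cre transgene, which acts in early T cells, had been irradiated at a sublethal dose, and had been transplanted with marrow into which a retrovirus had brought NPM-ALK. Sublethal irradiation leaves a host blood-forming cells of its own, and the labels do not say how sorted cells were traced to the infected marrow. The lymphomas were taken from the thymus of moribund mice, with no age stated in the labels. The design text names 3 lymphomas, each sorted by the T cell markers CD4 and CD8, by CD25 and CD44, and by KIT, SCA1, IL7Rα and lineage antigens. The other groups are 3 arrays each of lymphoma CLP (common lymphoid progenitor), DN1 and DN2 cells, and of LSK stem and progenitor cells from the bone marrow of healthy wild-type mice aged 18 months. They enter here for levels only.

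Thymocytes that lack CD4 and CD8 are ordered into double-negative stages by CD44 and CD25: normal DN3 cells are CD25-positive and CD44-negative, and normal DN4 cells have lost CD25 as well. Between these stages lies beta-selection, the checkpoint at which a rearranged T cell receptor beta chain pairs with the pre-TCR alpha chain (encoded by Ptcra). In normal thymus a cell that passes it shuts down CD25, Ptcra, the Rag genes and Notch targets, induces surface genes such as Cd2, Cd5, Cd27 and Cd28 together with Egr1 and Id3, and enters a burst of division. In a lymphoma that expresses an active tyrosine kinase from a retrovirus, the fractions are named by the same surface proteins, and the comparison asks which of these changes accompany the loss of CD25.

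Sort markers and lineage genes were read first as a check of the labels. Il2ra, the gene of CD25, gave log2 RMA signals (the probe set intensity after robust multi-array averaging) of 12.14, 11.87 and 12.05 on the DN3 arrays and of 8.66, 8.61 and 8.85 on the DN4 arrays. Both fractions were low for Cd44, at 4.58 to 4.79 in DN3 and 4.54 to 4.89 in DN4, below the background of 5.47 to 5.67. That background was taken on each array as the level that 95% of olfactory receptor probe sets do not exceed. Cd3e, a chain of the T cell receptor complex, averaged 12.85 in DN3 and 12.92 in DN4. These levels match the titles in direction, with high Il2ra in DN3, lower Il2ra in DN4 and little Cd44 in T lineage cells. Il2ra in DN4 still lay above that background, so the values do not show its RNA to be absent from the CD25-negative fraction. A free-text label field goes against the titles: it speaks of aged wild-type mice, with a dose of 4 Gy for the 3 DN3 arrays and without a dose for the 3 DN4 arrays. The same field conflicts with the titles of the other groups: it gives the dose for all DN1 and DN2 arrays, 2 CLP arrays and 1 LSK array, and names a NIPA knockout for every CLP and LSK array. The titles and the genotype field were followed; were that field correct, dose and fraction could not be told apart.

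The 6 arrays were close to each other. Over genes, arrays of the same fraction correlated with r of 0.987 to 0.992 and arrays of different fractions with r of 0.988 to 0.992, and the median SD of a gene was 0.156 in DN3 and 0.143 in DN4. The 3 samples of a fraction stand for the 3 lymphomas of the design text, and the labels do not state that equal replicate numbers come from the same animal. In a population sorted in bulk, fewer cells that express a gene and less RNA per cell cannot be told apart, which holds for every difference given here.

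Of 22180 genes, 4 passed a limma adjusted p under 0.05 (0.018% of the genes tested), and all 4 fell from DN3 to DN4. They are Il2ra, Ifitm3, Ms4a6b and AF357399, the last a small nucleolar RNA. The count was 1 without the replicate block, and 2, 4 and 87 without replicate 1, 2 and 3; in the last of these fits limma took the variance as equal for all genes. In the main fit 0 genes passed the adjusted threshold as higher in DN4. Without replicate 2 the calls were 3 lower and 1 higher, and without replicate 3 they were 62 lower and 25 higher. At a limma unadjusted p under 0.05, 654 genes were higher in DN4 (2.95%) and 1198 lower (5.4%). The 3 DN4 values lay wholly below the 3 DN3 values for 1520 genes (6.85%) and wholly above them for 1022 (4.61%). A difference of at least 2-fold was seen in 2 genes on each side (0.00902% of genes each). The plot of difference against level shows how narrow the whole cloud is around 0 beside the distance of Il2ra.

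**Figure D1:**
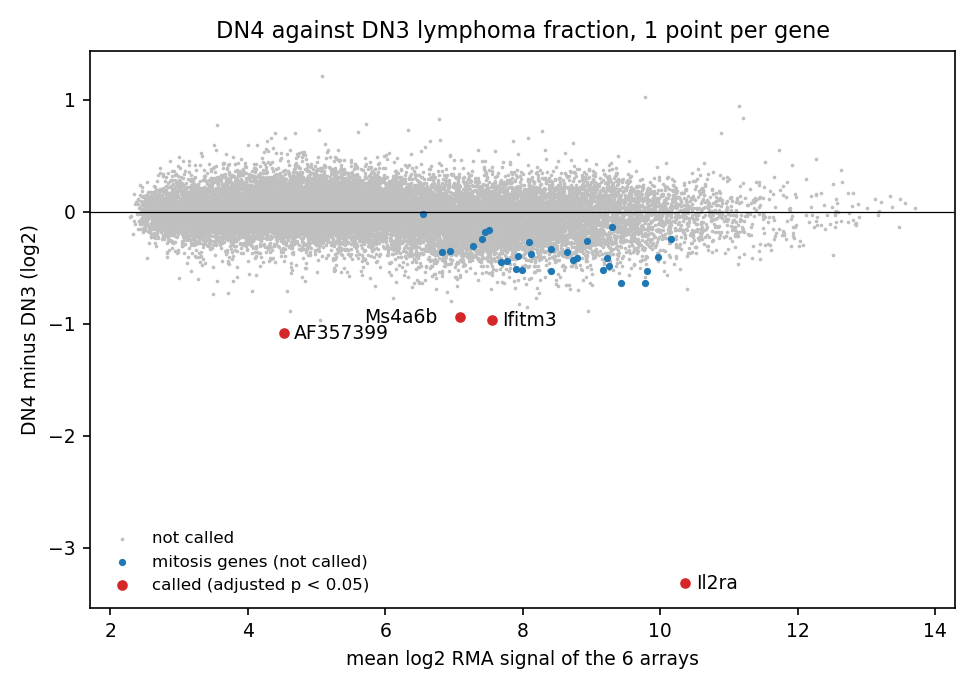
Each point is 1 of 22180 genes: the x axis is its mean log2 RMA signal over the 6 arrays and the y axis its DN4 minus DN3 difference (log2). The 4 called genes are red, with Il2ra at -3.31, and the 29 mitosis genes, none of them called, are blue and all lie below 0.

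The promoters of the genes that the comparison turns on are shown with the motif matches found in them. The sequences are from RefSeq (GRCm38.p6) and run 5′ to 3′ along the gene's own strand from 250 bases before the start to 30 after it. They belong to Il2ra (chr2:11642542-11642821, plus strand), Ifitm3 (chr7:141010715-141010994, minus strand) and Ms4a6b (chr19:11518309-11518588, plus strand), the 3 called protein-coding genes, and to Cdk1 (chr10:69352883-69353162, minus strand) and H2bc12 (chr13:22035571-22035850, plus strand), which stand for the mitosis and histone genes described later. Capitals mark matches to the motifs searched, which are named after the sequences.
Il2ra: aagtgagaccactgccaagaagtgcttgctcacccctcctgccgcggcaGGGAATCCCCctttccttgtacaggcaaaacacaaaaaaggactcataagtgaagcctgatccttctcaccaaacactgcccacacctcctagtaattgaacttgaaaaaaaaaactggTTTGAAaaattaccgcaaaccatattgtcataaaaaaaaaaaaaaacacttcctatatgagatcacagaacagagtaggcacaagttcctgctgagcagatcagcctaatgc
Ifitm3: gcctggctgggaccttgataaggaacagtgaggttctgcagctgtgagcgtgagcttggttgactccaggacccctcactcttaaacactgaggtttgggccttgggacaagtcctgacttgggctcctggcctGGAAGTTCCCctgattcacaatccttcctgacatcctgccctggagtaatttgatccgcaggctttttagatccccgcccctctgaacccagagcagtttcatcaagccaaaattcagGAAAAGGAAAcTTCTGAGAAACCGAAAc
Ms4a6b: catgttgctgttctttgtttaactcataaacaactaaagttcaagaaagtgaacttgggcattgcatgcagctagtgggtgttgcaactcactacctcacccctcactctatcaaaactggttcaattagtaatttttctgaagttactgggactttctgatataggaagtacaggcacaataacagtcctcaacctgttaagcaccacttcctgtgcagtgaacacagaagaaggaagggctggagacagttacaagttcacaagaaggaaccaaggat
Cdk1: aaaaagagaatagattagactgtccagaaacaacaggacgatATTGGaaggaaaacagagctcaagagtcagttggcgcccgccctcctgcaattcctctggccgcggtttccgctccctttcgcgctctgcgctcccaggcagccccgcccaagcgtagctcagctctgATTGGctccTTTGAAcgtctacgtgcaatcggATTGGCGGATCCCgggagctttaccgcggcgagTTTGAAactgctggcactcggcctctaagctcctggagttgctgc
H2bc12: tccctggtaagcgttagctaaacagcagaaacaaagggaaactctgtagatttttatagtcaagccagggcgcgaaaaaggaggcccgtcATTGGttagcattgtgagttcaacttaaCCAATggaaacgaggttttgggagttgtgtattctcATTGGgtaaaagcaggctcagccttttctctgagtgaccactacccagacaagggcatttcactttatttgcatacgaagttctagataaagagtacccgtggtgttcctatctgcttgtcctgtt

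The 6 motifs, searched on both strands, were an interferon-response-like element (GAAA, any 2 bases, GAAA), a STAT site (TTCNNNGAA), a kappaB site (GGGA, any 4 bases, CC), an RBPJ site (GTGGGAA), the CCAAT box (CCAAT) and the cell cycle homology region or CHR (TTTGAA). The window of Il2ra held a kappaB match at -201 to -192 and a CHR match at -82 to -77, counted from the start. Ifitm3 held 2 interferon-response-like matches just after its start, at 3 to 12 and 20 to 29, a STAT match at 14 to 22 that overlaps the second of them, and a kappaB match at -116 to -107 on the other strand. The interferon-response-like letters occurred in 3.28% of all 32851 promoter windows of this length, the STAT letters in 7.83% and the kappaB letters in 19.4%. None of the 6 motifs, RBPJ included (5.94% of windows), had a match in the Ms4a6b window. Cdk1 held 3 CCAAT matches, 2 CHR matches, and a kappaB match that overlaps the CCAAT match nearest the start, and H2bc12 held 3 CCAAT matches. A match is a run of letters and not a site shown to be bound.

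Il2ra (probe set 17366992, chromosome 2), the alpha chain of the IL-2 receptor, fell by 3.31 on the log2 scale (SE 0.127, 95% interval of the difference -3.59 to -3.03, limma adjusted p = 1.31e-07), a fold change of 9.92. Il2ra differed by -3.47, -3.25 and -3.20 within replicate numbers 1, 2 and 3, and no DN4 value came near a DN3 value. Because CD25 was used in the sort, this difference checks the labels and is no finding about the lymphoma. Across the series the mean level was 12.02 in DN3, 11.81 in DN2, 9.62 in LSK, 9.04 in DN1, 8.71 in DN4 and 8.31 in CLP. The DN4 arrays, at 8.61 to 8.85, lay below the DN1 arrays, at 8.88 to 9.32, by less than the spread among the DN1 arrays, and the LSK arrays spread from 9.33 to 10.15.

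None of the genes beside Il2ra on chromosome 2 was called. Its direct neighbour in RefSeq gene order is Il15ra, the alpha chain of the IL-15 receptor, with signals of 7.91, 7.82 and 8.04 in DN3 and of 8.77, 8.61 and 8.54 in DN4. All 3 DN4 values of Il15ra were above all 3 DN3 values, a difference of 0.72 (SE 0.13) that missed the threshold (limma adjusted p = 0.237). The other neighbours gave 0.18 for Prkcq, 0.05 for Pfkfb3, -0.01 for Rbm17, 0.04 for Fbh1 and -0.12 for Ankrd16. Il2rb, the shared beta chain of the IL-2 and IL-15 receptors, differed by 0.00, and Il7r, the receptor chain for IL-7 and itself a sort marker, by -0.35 (limma adjusted p = 0.485). Of 28 measured cytokine receptor and STAT5 target genes, Il2ra alone was called, and 5 were higher and 7 lower without overlap, beside 4.61% and 6.85% of all genes.

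**Figure D2:**
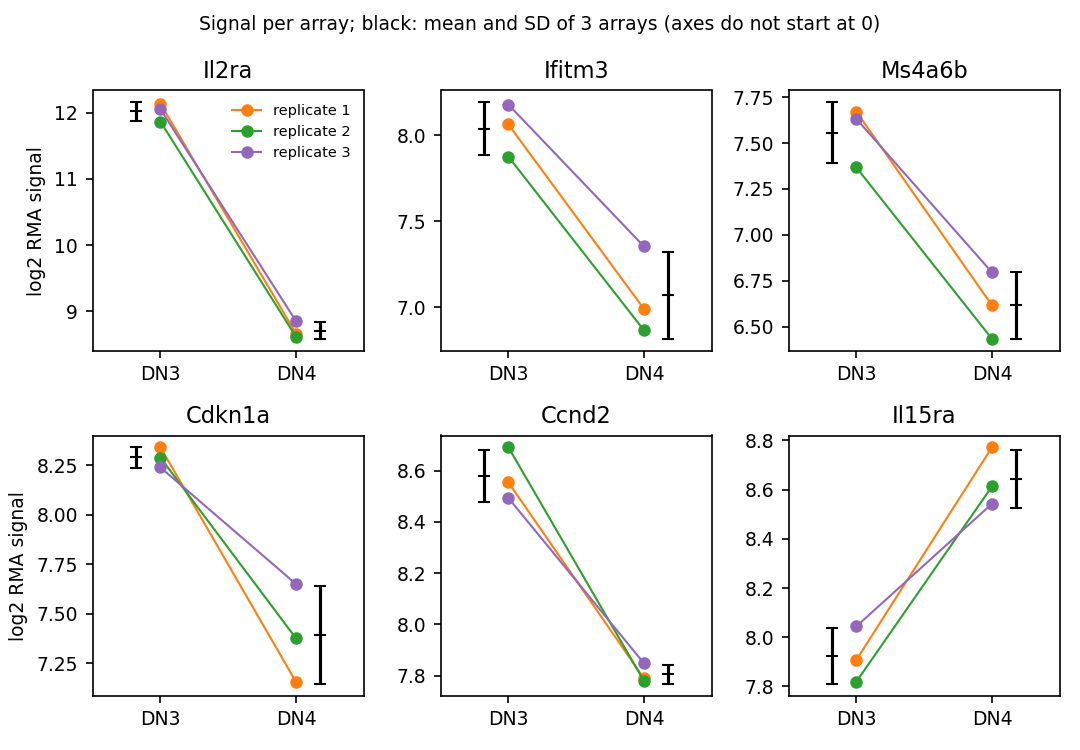
Log2 RMA signal of 6 genes on each DN3 and DN4 array, with lines that join equal replicate numbers and black bars for the mean and SD of 3 arrays; the y axes differ and do not start at 0. Of these, Il2ra, Ifitm3, Ms4a6b, Cdkn1a and Ccnd2 lie lower in DN4 and Il15ra lies higher, from 7.82 to 8.04 in DN3 to 8.54 to 8.77 in DN4.

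Ifitm3 (probe set 17497718, chromosome 7) encodes a membrane protein that restricts the entry of viruses and is induced by interferon. Its signals were 8.06, 7.87 and 8.18 in DN3 and 6.99, 6.87 and 7.35 in DN4. The groups did not overlap, and Ifitm3 fell by 0.97 on the log2 scale (SE 0.126, interval -1.24 to -0.69, limma adjusted p = 0.0372), a fold change of 1.95. Ifitm3 averaged 10.65 ± 0.201 (SD, n = 3) in DN1 and 10.04 ± 0.14 in DN2, against 8.04 ± 0.152 in DN3 and 7.07 ± 0.253 in DN4. DN4 was thus the lowest of the 6 groups, with CLP at 9.75 and LSK at 9.43, and its 3 arrays lay below every other array of the series. The call did not hold without the replicate block (adjusted p = 0.188) or with the 15 lymphoma arrays in 1 model (adjusted p = 0.0876), and over the alternatives tried the adjusted p of Ifitm3 ran from 0.000125 to 0.728.

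The gene next but 1 to Ifitm3, Ifitm2, codes for a closely related protein, and the probe sets of near-identical family members can share signal. Ifitm2 gave 10.71, 10.57 and 10.94 in DN3 and 9.98, 9.86 and 10.32 in DN4. Its groups did not overlap either, with a difference of -0.69 (SE 0.123, limma adjusted p = 0.237) that was not called. The other 4 members measured lay near or below background, with differences of 0.05 for Ifitm1, 0.23 for Ifitm6, 0.30 for Ifitm5 and 0.02 for Ifitm10.

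Among 20 measured type I interferon response genes, a list that holds Ifitm3, 1 was called lower and 0 higher (0.018% of all genes were called), and 6 were lower without overlap (6.85% of all genes). In all, 16 of the 20 were lower and 4 higher. At an unadjusted p under 0.05 (5.4% of all genes lower, 2.95% higher) there were 5 lower and 0 higher. That split was 3 and 0 without replicate 1, and 4 and 2 without replicate 2. Bst2, which tethers budding virus to the cell, gave 10.48, 10.15 and 10.53 in DN3 and 9.67, 9.73 and 10.07 in DN4, a difference of -0.56 (limma adjusted p = 0.309). Ifit2 (-0.43), Isg15 (-0.36) and Mx1 (-0.36, below background) were at unadjusted p of 0.0146, 0.0182 and 0.0144. Among the members nearest 0 or higher, Oas2, Rsad2 and Xaf1 differed by -0.00, 0.01 and -0.01, and the sensors Ifih1 and Ddx58 by 0.29 and 0.20. The median of the list was -0.10 beside -0.0029 for all genes, so most members were nearer 0 than Ifitm3 and Bst2. The interferon-response-like letters were in 10 of the 21 promoter windows found for genes of the list (47.6%).

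Ms4a6b (probe set 17357688, chromosome 19) encodes a membrane protein of the MS4A family that is expressed in T cells. Its signals were 7.67, 7.37 and 7.63 in DN3 and 6.62, 6.43 and 6.80 in DN4. The lowest DN3 array was above the highest DN4 array, and Ms4a6b fell by 0.94 (SE 0.125, interval -1.21 to -0.67, limma adjusted p = 0.0372), a fold change of 1.92. Across the series it averaged 8.50 ± 0.379 (SD, n = 3) in DN1, 7.56 ± 0.165 in DN3, 7.53 ± 0.173 in DN2, 7.24 ± 0.333 in CLP, 6.61 ± 0.181 in DN4 and 5.62 ± 0.106 in LSK. The DN2 and DN3 levels did not differ beyond their spread, and DN4 was the lowest lymphoma fraction. Of the 18 measured family members only Ms4a6b and 1 other lay above background, and the members beside it in gene order, Ms4a6c and Ms4a4d, were below background in both fractions. Like Ifitm3, Ms4a6b lost its call without the block (adjusted p = 0.188) and with 15 arrays (0.0876), with a range of 0.000313 to 0.728 over the alternatives.

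**Figure D3:**
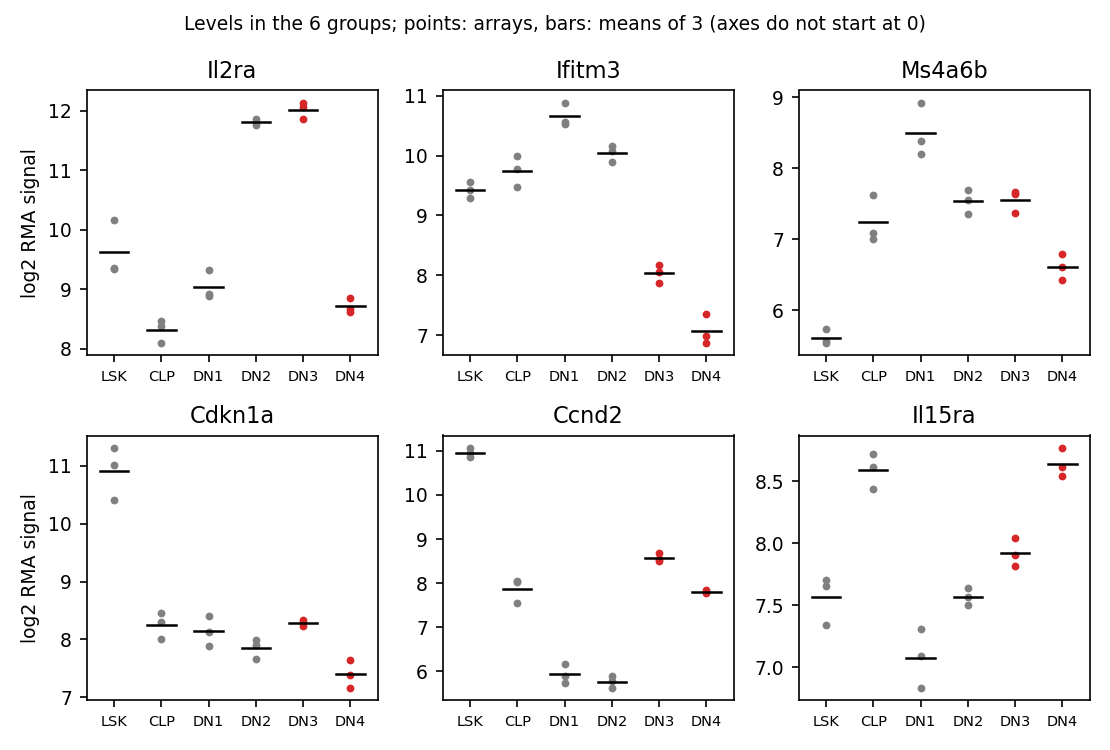
Log2 RMA signal of 6 genes in the 6 groups of the series; each point is an array, bars are means of 3 arrays, DN3 and DN4 are red, and the y axes differ and do not start at 0. Ifitm3 averages 10.65 in DN1 and 7.07 in DN4, while Ccnd2 is near 5.93 in DN1 and 5.77 in DN2, 8.58 in DN3 and 7.81 in DN4.

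The fourth called gene, AF357399, is named after its value was seen, since small RNA genes are left out of the ranking. Its signals of 4.97, 4.89 and 5.34 in DN3 and of 4.13, 3.55 and 4.27 in DN4 were all below the background range. It fell by 1.08 (SE 0.135, limma adjusted p = 0.0372), but both groups were at a level where a probe set reports little more than its own floor. It lost its call without the block (adjusted p = 0.353), and its adjusted p ran from 4.43e-05 to 1.0 over the alternatives.

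Lower values in DN4 were common among genes of the cell cycle, none of which was called. All 29 measured mitosis genes were lower in DN4, with a median difference of -0.40 beside -0.0029 for all genes and -0.03 for the 12238 genes above the array median. At an unadjusted p under 0.05, 20 of the 29 were lower and 0 higher, and 14 were lower without overlap. Over all genes, 5.4% were lower at that threshold and 6.85% were lower without overlap. Among the 12238 genes above the array median, 1009 were lower at that threshold and 1142 lower without overlap. The count of 20 was 13 without replicate 1 and 11 without replicate 2, with 0 higher in either.

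Cdk1, the kinase that drives entry into mitosis, gave 9.64, 9.91 and 9.67 in DN3 and 9.01, 9.09 and 9.22 in DN4. The groups did not overlap, and the difference was -0.64 (SE 0.13, limma adjusted p = 0.272), a fold change of 1.55. Plk1, a kinase of spindle assembly, gave 9.95, 10.44 and 9.89 against 9.26, 9.57 and 9.53, also without overlap, with a difference of -0.64 (adjusted p = 0.277). Ube2c (-0.52), Cdc20 (-0.49), Bub1 (-0.51), Aurkb (-0.53) and Ccna2 (-0.41), which act in the spindle checkpoint, the anaphase-promoting complex or cyclin control, showed the same separation. Ndc80, a kinetochore protein, differed by -0.53 with an overlap between the groups. Mki67, the gene of the Ki-67 proliferation marker, lay at 10.24, 10.18 and 10.39 in DN3 and at 9.84, 10.04 and 10.21 in DN4. Its difference of -0.24 had overlapping groups, and Ccnb2 and Cenpf were closer still, at -0.13 and -0.02.

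The difference in mitosis genes was unequal among the pairs of arrays. The list median was -0.40 within replicate number 1, -0.61 within number 2 and -0.15 within number 3. Averaged over the 29 genes, the signal per array was 8.40 to 8.86 in DN3 and 8.02 to 8.32 in DN4, so the groups did not overlap. DN2 stood at 8.60 to 8.91 and DN1 at 8.10 to 8.17, while LSK ranged from 8.06 to 8.61. CLP spread widely, with its highest array at 8.71 and its lowest below every DN4 array. The DN4 arrays lay nearer the range of DN1 than that of DN2, which is given as a description with no test.

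All 29 measured DNA replication and nucleotide supply genes were also lower in DN4, with a median of -0.30. Here 15 were lower at an unadjusted p under 0.05 (5.4% of all genes), 15 were lower without overlap (6.85%), and 0 were called (0.018%). Without replicate 1 the first count was 8. Gins2, a subunit of the replicative helicase, gave 8.63, 8.35 and 8.67 in DN3 and 7.84, 7.86 and 8.12 in DN4, a difference of -0.61 (SE 0.13, limma adjusted p = 0.277). Tk1, the thymidine kinase of the salvage pathway, gave 9.30, 9.02 and 9.31 against 8.70, 8.50 and 8.69, a difference of -0.58 (adjusted p = 0.277). In neither gene did the groups overlap. E2f1, the transcription factor of S phase entry, differed by -0.48 and Rrm2, a subunit of ribonucleotide reductase, by -0.47. Other helicase components gave -0.45 for Gins1 and -0.41 for Cdc45, and the Mcm2 to Mcm7 genes ran from -0.37 for Mcm5 to -0.07 for Mcm6 and Mcm7. The list mean was 9.06 to 9.32 on the DN3 arrays and 8.82 to 8.92 on the DN4 arrays, with pair medians of -0.27, -0.46 and -0.17.

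Replication-dependent histone genes, a list drawn up after values had been seen, were lower in 21 of 26 cases, with a median of -0.34. Of these, 14 were lower at an unadjusted p under 0.05 (5.4% of all genes), 8 were lower without overlap (6.85%) and 0 were called (0.018%). The first count was 7 with 15 lymphoma arrays and 9 with 12 arrays in the model. Only 17 of the 26 genes lay above background. A filter on dim genes kept 16, of which 12 were lower at an unadjusted p under 0.05. H2bc12, a histone H2B gene, gave 9.31, 9.35 and 9.52 in DN3 and 8.45, 8.72 and 8.35 in DN4, a difference of -0.89 (SE 0.138, limma adjusted p = 0.114). H2ac21, a histone H2A gene, gave 8.26, 8.70 and 8.53 against 7.56, 7.87 and 7.49, a difference of -0.85 (adjusted p = 0.103). Both genes stood well apart between the fractions, and both passed the threshold with a trended and robust variance prior (limma adjusted p = 0.0361 for each). With the mean of its probe sets, H2ac21 differed by -0.41 only. Pair medians were -0.14, -0.48 and -0.37, so the order of the pairs was not that of the mitosis genes. Histone genes are near-identical copies, so probe sets may share signal between them. Across the groups the list mean was 6.72 to 7.03 in DN3, 6.36 to 6.60 in DN4, 6.72 to 6.86 in DN2 and 6.26 to 6.61 in DN1.

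The promoter windows of these genes were searched for the 2 elements that are known from cell cycle promoters. A CCAAT match was present in 20 of 26 windows of mitosis genes (76.9%), 16 of 29 of replication genes (55.2%) and 18 of 24 of histone genes (75%), beside 36.1% of all windows. CHR letters, known from genes of late cell cycle phases, were present in 16 of 26 mitosis windows (61.5%), 3 of 29 replication windows (10.3%) and 9 of 24 histone windows (37.5%), beside 17.2% of all. The 3 CCAAT and 2 CHR matches of Cdk1 and the 3 CCAAT matches of H2bc12 can be read in the sequences printed with the promoters. These shares describe the lists and hold for their members whether or not a member differed between the fractions.

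**Figure D4:**
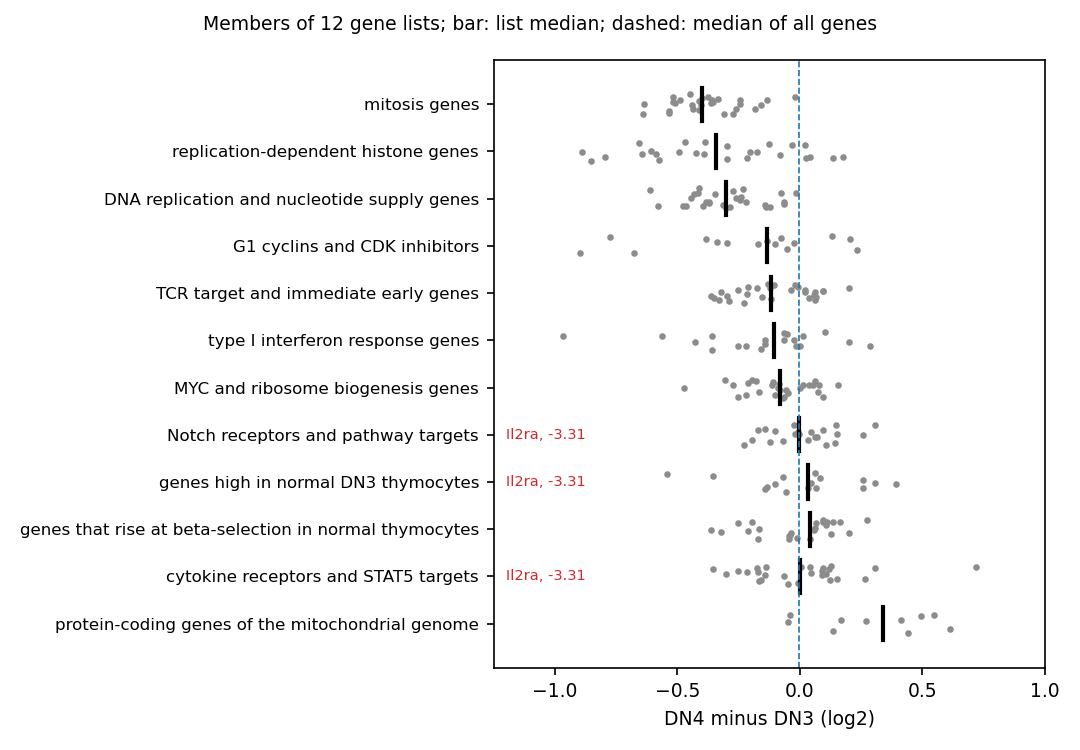
DN4 minus DN3 difference (log2) of each measured member of 12 gene lists; the black bar is the list median and the dashed line the median of all 22180 genes, and Il2ra, off the scale, is written at its value of -3.31. Mitosis, histone and replication genes lie mostly below 0, with medians of -0.40, -0.34 and -0.30, and the lists of normal DN3 genes and of genes that rise at beta-selection straddle 0.

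Regulators of G1 gave some of the widest separations without a call. Cdkn1a, the p21 inhibitor of cyclin-dependent kinases and a p53 target, gave 8.34, 8.29 and 8.24 in DN3 and 7.16, 7.38 and 7.65 in DN4. The SD was 0.0508 in DN3 and 0.248 in DN4, every DN4 array was lower, and the difference was -0.90 (SE 0.141, limma adjusted p = 0.114). Ccnd2, the cyclin D2 gene, gave 8.55, 8.69 and 8.49 against 7.79, 7.78 and 7.85, a difference of -0.77 (SE 0.126, adjusted p = 0.139). Cdkn2d, the p19 inhibitor of CDK4 and CDK6, gave 8.19, 8.22 and 8.26 against 7.41, 7.36 and 7.86, a difference of -0.68 (adjusted p = 0.272). Cyclin D2 and 2 inhibitors of cyclin-dependent kinases were thus lower in the same fraction. Cdkn2c (-0.38), Cdkn2a (-0.30) and Cdk4 (-0.34) were lower without overlap at unadjusted p of 0.00877, 0.0333 and 0.0341. The other D cyclins, Ccnd1 and Ccnd3, differed by -0.08 and -0.05, and Cdk6 by 0.13. Over the 15 genes the median was -0.13. At an unadjusted p under 0.05, 6 were lower (5.4% of all genes) and 0 higher (2.95%). The count of 6 was 3 with 15 lymphoma arrays and 4 with all probe sets; it was 4 without replicate 1, and without replicate 2 it stayed at 6 with 2 higher.

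Cdkn1a in DN4, at 7.16 to 7.65, lay below every CLP, DN1, DN2 and DN3 array, the nearest being a DN2 array at 7.66, and the LSK mean was 10.92. Ccnd2 had a different course, with 5.93 in DN1 and 5.77 in DN2, 7.88 in CLP and 10.96 in LSK. Among other p53 targets Trp53inp1 differed by 0.44, Pmaip1 by 0.29 and Bbc3 by -0.27, and the median of 25 p53 target and stress genes was -0.05.

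**Figure D5:**
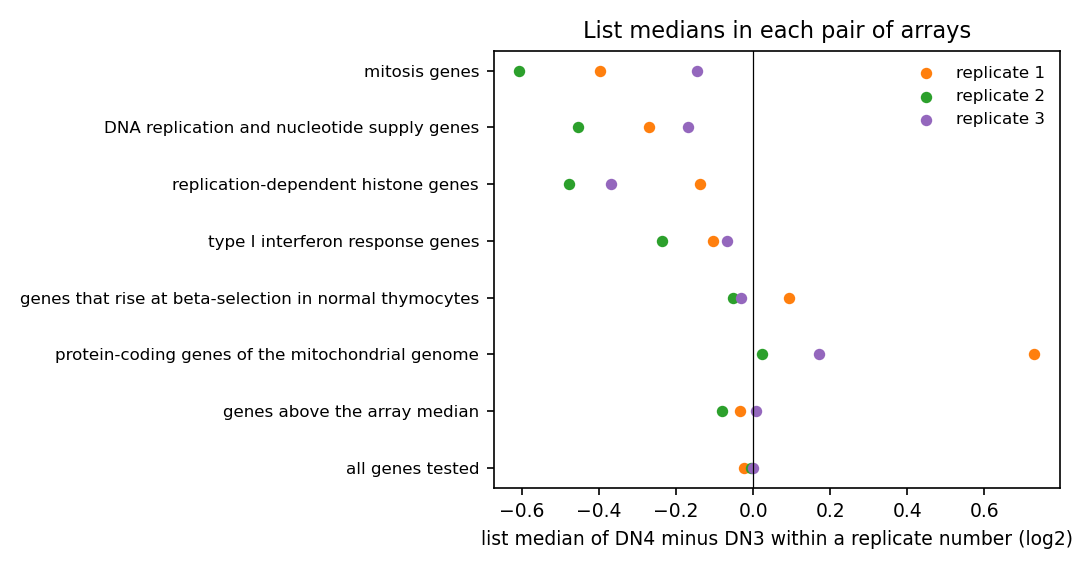
Median DN4 minus DN3 difference (log2) of 6 gene lists, of genes above the array median and of all genes, within each replicate number. Mitosis genes are at -0.40, -0.61 and -0.15 and replication genes at -0.27, -0.46 and -0.17, whereas mitochondrial genes are at 0.73 within number 1 and at 0.02 and 0.17 within numbers 2 and 3.

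Among genes that mark DN3 cells in the normal thymus, none but Il2ra was called. Ptcra, the pre-TCR alpha chain, gave 9.06, 8.72 and 9.14 in DN3 and 8.93, 8.99 and 9.14 in DN4. The groups overlapped, and the 95% interval of the difference ran from -0.24 to 0.33 around 0.05, which leaves out a change by 2-fold in either direction. Notch1, the receptor on which early T cells depend, gave 10.80 to 11.08 against 10.65 to 11.19, a difference of 0.03 (interval -0.25 to 0.31). Notch3, a receptor gene and Notch target, gave 10.03, 9.88 and 9.91 against 10.26, 10.42 and 10.05, higher by 0.30 with an unadjusted p of 0.0385 and an adjusted p of 0.57. Dntt, which encodes the TdT enzyme that adds bases at receptor joints, differed by -0.06 (interval -0.35 to 0.24). Rag2, a subunit of the recombinase, lay at 4.78 to 5.57 in DN3 and 5.15 to 5.99 in DN4, around background, and Rag1 is not analysed here.

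Of 17 measured genes that are high in normal DN3 cells, Il2ra was called lower and none higher, and the median was 0.03. The 2 others at an unadjusted p under 0.05 and lower (5.4% of all genes) were Il7r (-0.35) and Spib (-0.54, limma adjusted p = 0.289). Spib is a transcription factor whose 3 DN3 values of 5.18 to 5.38 were themselves below background. Of 23 Notch receptors and targets, counted with Il2ra, 1 was called, and the median was -0.0028. At an unadjusted p under 0.05, 1 was lower (5.4% of all genes) and 1 higher (2.95%). These counts became 3 and 0 without replicate 2 and 2 and 2 without replicate 3. Hes1, Dtx1 and Nrarp, which respond directly to Notch, differed by -0.10, -0.14 and -0.07, all with overlap, and Heyl by 0.26. The kinases, adaptors and CD3 chains of the pre-TCR, 25 genes with the recombination genes, had a median of 0.04 and no call. At an unadjusted p under 0.05 (5.4% of all genes lower, 2.95% higher), Bcl10 alone was lower (-0.27) and 0 genes were higher.

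Of 25 measured genes that rise at beta-selection in normal thymocytes, 0 were called, and the median was 0.04. At an unadjusted p under 0.05, 2 were lower and 0 higher, beside 5.4% lower and 2.95% higher over all genes. Cd2 gave 9.12, 9.21 and 9.16 in DN3 and 9.09, 9.17 and 9.35 in DN4, and Cd27 gave 9.83, 9.98 and 9.74 against 9.95, 9.80 and 9.76. Both sets of values overlapped, with differences of 0.04 and -0.01. Cd5 (0.07, interval -0.20 to 0.33) and Cd28 (-0.04, interval -0.31 to 0.23) were no further apart. The 2 genes lower at an unadjusted p under 0.05 were Egr1 and Id3, transcription regulators that pre-TCR signals induce. Egr1 gave 6.49, 6.49 and 6.33 against 6.02, 6.11 and 6.22, a difference of -0.32 (limma adjusted p = 0.551), and Id3 gave 6.36, 6.06 and 6.24 against 5.72, 5.70 and 6.16, a difference of -0.36 (adjusted p = 0.541). Neither passed the threshold, and the count of 2 was 0 without replicate 1 and 1 without replicate 2.

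Other immediate early genes and T cell receptor targets, 29 with these 2, had a median of -0.12 and no call. At an unadjusted p under 0.05, 5 were lower (5.4% of all genes) and 0 higher (2.95%). The count of 5 was 3 without replicate 2, without replicate 3 or without the block, and 1 with 15 arrays or with all probe sets. Ier2 (-0.35), Jun (-0.29) and Fosb (-0.30) were the other 3, while Nr4a1, Nr4a2 and Nr4a3 differed by -0.04, 0.04 and 0.09. Among 31 T lineage transcription factors, Zbtb16, which encodes PLZF, was the furthest apart. It gave 5.05, 5.13 and 5.54 in DN3 and 6.08, 5.87 and 5.91 in DN4, all DN4 values higher, with a difference of 0.71 (SE 0.145, limma adjusted p = 0.272). Its DN3 level was below background, so its difference rests on values near the floor. Gata3, Bcl11b, Runx1 and Myb, which set and keep T cell identity, differed by -0.00, 0.11, 0.04 and 0.06.

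Of 34 measured genes linked to NPM-ALK and its effector STAT3, 0 were called, and the median was 0.02. At an unadjusted p under 0.05, 1 was lower (5.4% of all genes) and 1 higher (2.95%). Stat3 itself differed by 0.19, Socs3 by 0.12, Myc by 0.10, Tnfrsf8 (CD30) by 0.09 and Junb by -0.11. The mouse Alk probe set lay below background in both fractions, at 4.97 and 4.84 on average, and gives no measure of the fusion.

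Markers of other cell types that the gates could hold were mostly dim, with some bright members, and their part in the differences was not tested. Above background were 3 of 12 measured B cell markers, 4 of 15 of macrophages and monocytes, 5 of 15 of granulocytes, 3 of 8 of erythroid cells and megakaryocytes, 6 of 11 of dendritic cells and 5 of 16 of stroma and thymic epithelium. Pax5, Csf1r, Lyz2, S100a8 and Epcam lay near or below background in both fractions, which does not hold for every member. Among B cell markers Ighm, the IgM heavy chain gene, averaged 11.51 in DN3 and 11.48 in DN4, and Igll1, of the surrogate light chain, 7.34 and 6.95. Igll1 (-0.38, overlapping groups) and Cd79a (-0.37, without overlap and dim) were lower at an unadjusted p under 0.05. Cd68 averaged 8.77 and 8.75 and Ly6c2 7.04 and 6.92 among macrophage and monocyte markers. The stromal list held Pdgfrb at 12.50 and 12.61 and Pecam1 at 9.83 and 9.95. The mean level of the B cell markers was 5.57 to 5.71 in DN3 and 5.57 to 5.61 in DN4, that of the macrophage markers 5.41 to 5.49 and 5.41 to 5.50, and that of the granulocyte markers 4.91 to 5.19 and 4.90 to 5.15. Erythroid and megakaryocyte markers stood at 5.09 to 5.20 and 5.17 to 5.29, those of stroma and thymic epithelium at 5.89 to 6.04 in DN3 with a lowest DN4 array of 5.86. The ranges of the fractions overlapped in each of these. Dendritic cell markers included Bst2, described with the interferon genes, Cst3 (9.48 and 9.15, a difference of -0.33) and Tcf4 (8.86 and 9.02), and their list mean was 6.60 to 6.71 in DN3 and 6.59 to 6.69 in DN4. Mature alpha-beta T cell markers (11 measured, median difference 0.02) held no call, and their mean level was 7.55 to 7.59 in DN3 and 7.52 to 7.54 in DN4. Gamma-delta T cell markers (6 measured, median difference 0.03, Zbtb16 among them) held no call either, at 6.43 to 6.52 and 6.56 to 6.64. Both lists were separated between the fractions by a small step. In the alpha-beta list 5 members were lower and 6 higher, the furthest of the latter being Lef1 (0.27). The lower ones were the sort markers Il7r (-0.35), Cd8b1 (-0.25), Cd4 (-0.20) and Cd8a (-0.04), and Foxp3 (-0.27), which lay below background. In the gamma-delta list the step rests on Zbtb16, near the floor in DN3, which differed by 0.71. Its other members had differences of both signs, from -0.20 for Il17a to 0.18 for Blk.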

How the data were processed

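Sorted lymphoma fractions were hybridised to Affymetrix whole-transcript arrays after amplification with a Pico kit. The deposited values are log2 expression, made by the authors with oligo and RMA per the submitters' processing notes; versions and the genome build are not given in the sources used here. Of 41345 probe sets, 23521 carried 1 gene symbol; the brightest per gene over 18 arrays was kept, which gave 22180 genes. DN4 was compared with DN3 in limma 3.58.1 (R 4.3.3) on 6 arrays, with the replicate number as a block and Benjamini-Hochberg adjustment over all genes (threshold 0.05). Pairing is not stated in the labels: deviations from the group means correlated by 0.11, 0.108 and 0.273 in the 3 same-numbered pairs. Arrays give no depth, and their number limits the precision. The p-values and SEs rest on a variance that limma moderates toward a value shared over genes. Of 12.0 degrees of freedom, 10.0 came from that shared prior. They thus reflect the spread of a single gene between these samples only in part.

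Named genes were those called and not overlapping, up to 12 in each direction, up to 4 members per list by smallest p, and a set known for this step; predicted, small RNA, olfactory and antigen receptor genes stayed out of the ranking. The members and lists were chosen with earlier results of these data known, and the Ifitm, Ms4a, histone and mitochondrial lists and some named genes after values were seen. Alternatives were no block, 15 or 12 arrays in the model, a filter on dim genes, quantile normalization, mean probe sets, a trended and robust prior, leaving out each replicate, and all probe sets. Genes with no probe set of a single symbol, such as Rag1 and Tcf7, were not analysed here.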

Additional observations from a re-analysis of the deposited data

How the results depend on the processing

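Il2ra was called under every alternative tried. The count of 4 called genes became 1 without the replicate block, 1 with 15 lymphoma arrays and 2 with 12 arrays in the model, and 1 with all probe sets tested, an alternative chosen after seeing the data. Leaving out a replicate gave 2 to 87, with 1 gene called higher without replicate 2 and 25 without replicate 3. The 87, without replicate 3, arose where limma took the variance as equal for all genes, so that each had an SE of 0.191; 3 mitosis and 3 histone genes were then called lower. Without replicate 1 the calls of Ifitm3 and Ms4a6b were lost (limma adjusted p = 0.265 and 0.284), and without replicate 2 as well (0.1 for each). Small differences turned sign: with quantile normalization Cd27 was 0.0027 and Cd44 -0.0045. Over the fits that left out a replicate, Cd2 ran from -0.033 to 0.081, Cd27 ran from -0.076 to 0.071, Cd44 ran from -0.0032 to 0.095, Dntt ran from -0.19 to 0.065, Notch1 ran from -0.043 to 0.12, Ptcra ran from -0.063 to 0.13 and Rag2 ran from -0.016 to 0.76. Of 478 values of named genes under the alternatives, 432 kept direction and side of the threshold. List medians over those fits ran from -0.28 to -0.51 for mitosis, -0.22 to -0.37 for replication and -0.25 to -0.46 for histone genes. Probe sets below background limit what Rag2, Spib, Zbtb16 and AF357399 can show.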

Other observations

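The protein-coding genes of the mitochondrial genome, a list drawn up after values had been seen, had differences of the opposite sign to the cell cycle genes. Of 10 measured, 8 were higher in DN4 and 2 lower, with a median difference of 0.34. At an unadjusted p under 0.05, 5 were higher (2.95% of all genes), and 0 were called. COX3, a subunit of cytochrome oxidase, gave 11.01, 11.89 and 11.43 in DN3 and 12.08, 12.02 and 11.88 in DN4, with overlapping groups. ND5, a subunit of complex I, gave 11.11, 11.54 and 11.27 against 11.83, 11.69 and 11.72, without overlap (difference 0.44, limma adjusted p = 0.456). The list median was 0.73 within replicate number 1 and 0.02 and 0.17 within numbers 2 and 3, so 1 pair gave most of it. The list mean was lowest on the first DN3 array, at 10.33, beside 10.91 and 10.57 on the other DN3 arrays and 10.81 to 11.01 on the DN4 arrays.

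The genes whose pattern over the 15 lymphoma arrays was most like that of Il2ra were Rasl11b (Pearson r 0.869), Rcc1 (0.869), Lin54 (0.83), Defa24 (0.816) and Tubb5 (0.804), as a description over arrays that share lymphomas and with no test. Between DN3 and DN4 these differed by -0.63, -0.39, -0.34, -0.30 and -0.29. The DN3 and DN4 arrays are among the 15 used to choose these genes. Lower values in DN4 thus follow from the choice and are no separate result. Among these genes, Rcc1 is the exchange factor of the RAN GTPase, Lin54 a DNA-binding subunit of the DREAM complex and Tubb5 a beta-tubulin. Defa24 averaged 5.36 in DN3 and 5.06 in DN4, below the background of 5.47 to 5.67.

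The 2 genes higher by at least 2-fold, named after their values were seen, were Mir1933 and Tlcd1. Mir1933 gave 4.86, 3.99 and 4.57 in DN3 and 6.20, 5.82 and 5.03 in DN4, 4 of the 6 values below background (limma adjusted p = 0.168). Tlcd1 gave 8.74, 10.64 and 8.43 against 11.36, 10.83 and 8.70, with overlapping groups. Pgp, a phosphatase of glycolytic by-products, gave 8.66, 8.15 and 8.27 against 7.49, 7.38 and 7.74, lower without overlap, with a difference of -0.83 (limma adjusted p = 0.209).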
